A study of Mus musculus with 6 samples.

Results

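Fragments of the nuclear alanine tRNAs were 910 of the 38798 tRNA-derived small RNA (tsRNA) sequences counted in mouse pulmonary artery smooth muscle cells. A sequence was taken as a tRNA-Ala fragment when every tRNA listed for it was an alanine isoacceptor, which the table names mature-tRNA-Ala-AGC, mature-tRNA-Ala-CGC and mature-tRNA-Ala-TGC after their anticodons. The rule uses the annotation alone and no measured value, but the abundance of short tRNA-Ala 5′ ends in these data was known when tRNA-Ala was chosen. Another 41 sequences list tRNA-Ala beside a different tRNA, 32 of them tRNA-Glu, and were left out. The hypoxia group was 3 libraries of wild-type primary cells (mPASMC) kept at 3% O2 for 24 hours. The normoxia group was 3 libraries of wild-type primary cells grown in normoxia. Library making followed Pandora-seq. Before cloning, enzymes convert modified bases and ends that would stop an adapter from joining or an RNA from being copied. The design text calls the replicates biological, but the number of animals behind the cultures was not given, so p-values measure the spread between these cultures. The table counts tRNA fragments alone, and no marker of smooth muscle or of another cell type could be checked.

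tRNA-Ala carries alanine to the ribosome and, once transcribed and trimmed, receives a CCA tail that is needed for charging. Cleaved tRNAs leave 5′ fragments, 3′ fragments with or without the CCA tail, and pieces from the interior. The 5′ end of most alanine tRNAs is a run of G, the terminal oligoguanine motif, which is shared with tRNA-Cys. In human cells, long 5′ fragments of tRNA-Ala and tRNA-Cys with this motif, cut by the nuclease angiogenin under stress, repress the start of translation, and shorter 5′ fragments with it do so in human stem cells when modified by the pseudouridine synthase PUS7. Pulmonary artery smooth muscle cells are the contractile cells that multiply in the vessel wall in hypoxic pulmonary hypertension.

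The sequences that carry the results are shown here from 5′ to 3′, as the table gives them, in DNA letters. The first set is the 15 nt 5′ end of the start types that make up the class, where a start type is set by the first 8 bases. Capitals mark the leading run of G.
Start type 1: GGGGatgtagctcag
Start type 2: GGGGGtgtagctcag
Start type 3: GGGGGattagctcaa
Start type 4: GGGGaattagctcaa
Start type 5: tccctggtagtctag
Start type 6: GGGGttgtagctcag

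The next set shows how the abundant 5′ ends differ in length alone, with the most abundant fragments of start type 1 at 18 and 19 nt, the most abundant of start type 3 at 19 nt, and 1 fragment that begins 1 base later and is therefore classed as internal.
Start type 1, 18 nt: GGGGatgtagctcagtgg
Start type 1, 19 nt: GGGGatgtagctcagtggt
Start type 3, 19 nt: GGGGGattagctcaaatgg
Internal, 17 nt: gggatgtagctcagtgg

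The last set holds the 3′ side, with capitals on the CCA tail. It gives the most abundant CCA end, its counterpart from mature-tRNA-Ala-AGC, the most abundant CCA end of at least 30 nt, and the 37 nt CCA end that had the smallest p-value of all tRNA-Ala fragments.
CCA end, 18 nt: tccccggcatctccaCCA
CCA end of AGC, 18 nt: tccccagcatctccaCCA
CCA end, 30 nt: ccccgggttcgatccccggcatctccaCCA
CCA end, 37 nt: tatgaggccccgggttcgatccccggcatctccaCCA

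Counted from the 5′ end of the 15 nt fragment of start type 1, start type 2 differs by A5G, start type 6 by A5T, start type 4 by T6A, G7T and G15A, and start type 3 by A5G, T6A, G7T and G15A. Start type 5 differs at 9 of the 15 bases and has no leading G. RefSeq lists 33 mouse genes for nuclear tRNA-Ala, 13 with anticodon AGC, 9 with CGC and 11 with TGC. Chromosomes 13 and X hold 12 each, chromosome 5 holds 3, chromosome 4 holds 2, and chromosomes 2, 3, 11 and 19 hold 1 each. The genes are 72 nt long except for 8 of 73 nt, all with anticodon AGC. Their copies share sequence, so no fragment was placed on a single gene.

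Library totals were 510519, 2563749 and 1713960 counts in hypoxia replicates 1, 2 and 3, against 330787, 2217965 and 1629726 counts in normoxia replicates 1, 2 and 3. Levels are given in CPM, the counts scaled to 1000000 per library, and 3 counts equal 9.07 CPM at the lowest total and 1.17 CPM at the highest. Both libraries numbered 1 stood apart from the others in makeup: 5′ ends of any tRNA took 36.6% of counts in hypoxia replicate 1 and 34.6% in normoxia replicate 1, against 53.0% to 53.3% in the other hypoxia libraries and 55.3% to 58.6% in the other normoxia libraries. The part of this in the results was not tested, so the main differences are also given without both libraries numbered 1.

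tRNA-Ala fragments were a large share of the tsRNA pool, and hypoxia and normoxia libraries overlapped in that share. They took 3.08%, 20.4% and 18.5% of all tsRNA counts in hypoxia replicates 1, 2 and 3, against 3.63%, 21.3% and 26.6% in normoxia replicates 1, 2 and 3. The low values are the libraries numbered 1 in both groups. The means were 14.0% ± 9.49 in hypoxia and 17.2% ± 12.0 in normoxia (SD, n = 3 each), a difference of -3.20 percentage points (two-sided exact permutation test, p = 0.5, where 3 against 3 libraries cannot go below 0.1). The ratio of hypoxia to normoxia was 0.85 for replicates 1, 0.959 for replicates 2 and 0.693 for replicates 3. The design text states no pairing, and a pair here means a hypoxia and a normoxia library of the same number. In bulk libraries such as these, fewer cells with the fragments and fewer fragments per cell cannot be told apart.

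Most tRNA-Ala counts were 5′ ends. The class held 118 of the 910 sequences and 81.6%, 95.9% and 96.1% of tRNA-Ala counts in hypoxia, against 82.2%, 96.2% and 96.4% in normoxia. All other tRNAs together had 32.8% to 44.8% of their counts in 5′ ends, and the tRNA-Ala share was higher in 6 of 6 libraries, by 51.0 ± 2.68 percentage points (SD of the difference, n = 6 libraries). This difference is a description without a test, since the abundance of these 5′ ends was known when tRNA-Ala was chosen. CCA ends, 3′ fragments that keep the tail, were 47 sequences with 2.46% to 8.01% of tRNA-Ala counts in hypoxia and 2.44% to 8.20% in normoxia. Internal fragments were the most varied class, with 712 sequences, but held 1.28% to 10.3% of counts in hypoxia and 1.13% to 9.53% in normoxia. The 3′ ends without CCA were 33 sequences with 16, 27 and 33 counts in hypoxia and 11, 12 and 1 counts in normoxia, too few to compare.

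**Figure D1:**
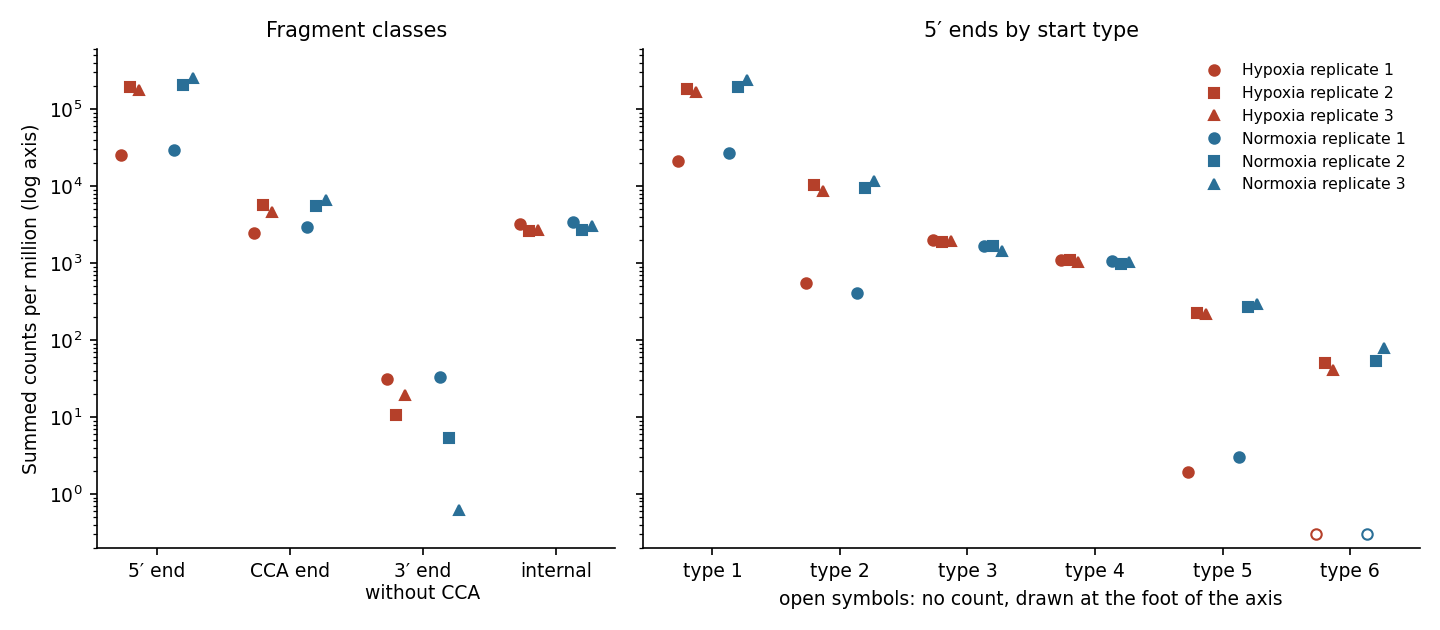
Summed CPM (log axis) of tRNA-Ala fragments by class (left) and of tRNA-Ala 5′ ends by start type (right), 1 symbol per library, hypoxia left of normoxia, circles for replicate 1. Start types 1 and 2 lie far lower in the libraries numbered 1 than in the others, while start types 3 and 4 lie at about the same level in all 6 libraries.

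The low tRNA-Ala share of the libraries numbered 1 lay mainly in the 5′ ends. Summed 5′ ends had 25143, 195659 and 177392 CPM in hypoxia, against 29814, 204560 and 256947 CPM in normoxia (means 132731 ± 93621 and 163773 ± 118933 CPM, SD, n = 3 each; exact permutation p = 0.5). Internal fragments had 3187, 2614 and 2693 CPM in hypoxia, against 3455, 2709 and 3012 CPM in normoxia. That class was therefore no lower in the libraries numbered 1 than in the others. CCA ends were lower there too, with 2470, 5721 and 4551 CPM in hypoxia, against 2975, 5453 and 6507 CPM in normoxia. Of the sums over other amino acids and classes, the 5 with the highest Pearson correlation of log2(CPM + 1) with tRNA-Ala 5′ ends across the 6 libraries were 5′ ends of tRNA-Met (r = 0.996), initiator tRNA-Met (0.992) and tRNA-Gln (0.988) and CCA ends of tRNA-Glu (0.99) and tRNA-Tyr (0.988), out of 168 sums. These libraries fall into the low pair and the rest, so that the correlations describe that split.

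The 4 most abundant tsRNAs in the whole table were tRNA-Ala 5′ ends, all of start type 1 and each shared by the 3 isoacceptors. The 15 nt fragment GGGGatgtagctcag had 6164, 72025 and 58161 CPM in hypoxia, against 5505, 75698 and 105429 CPM in normoxia. The 18 nt fragment GGGGatgtagctcagtgg had 6789, 30415 and 29597 CPM in hypoxia, against 6170, 31297 and 38164 CPM in normoxia. The 19 nt fragment GGGGatgtagctcagtggt had 3976, 30007 and 32018 CPM in hypoxia, against 8719, 29722 and 29092 CPM in normoxia. In the 15 and 18 nt fragments hypoxia replicate 1 was higher than normoxia replicate 1 and both other hypoxia libraries were lower than their normoxia counterparts, while the 19 nt fragment had the opposite order in all 3 pairs. The groups overlapped in each. The 17 nt fragment GGGGatgtagctcagtg, the fourth in rank, had 2243, 24720 and 21062 CPM in hypoxia, against 2110, 28926 and 39441 CPM in normoxia. The other 6 of the 10 most abundant tRNA-Ala fragments were the 16, 20, 21, 22 and 23 nt fragments of start type 1 and the 15 nt fragment of start type 2. They ranged from 212 to 7764 CPM in hypoxia and from 239 to 9575 CPM in normoxia, with edgeR log2 changes between -0.45 and 0.04.

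The 5′ ends were short. Fragments of 15 to 24 nt held between 99.83% and 99.99% of tRNA-Ala 5′ end counts in both groups, at 99.89% ± 0.0912 in hypoxia and 99.88% ± 0.0563 in normoxia (SD, n = 3 each; exact permutation p = 0.9). At 15 nt, which is the shortest length in the table, lay 26.2%, 40.8% and 36.2% of 5′ end counts in hypoxia, against 19.4%, 40.3% and 44.4% in normoxia. Shorter pieces were not analysed here. The shares at 17, 18 and 19 nt averaged 11.6%, 21.4% and 19.7% in hypoxia and 12.6%, 18.2% and 20.9% in normoxia, with 2.50% in hypoxia and 2.51% in normoxia at 16 nt between them. The libraries numbered 1 had their peak at 18 nt in hypoxia, with 29.8%, and at 19 nt in normoxia, with 35.6%, and the other 4 libraries at 15 nt.

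Long 5′ ends, taken here as those of at least 30 nt, were rare. The shortest of them stop before the anticodon, which lies at positions 33 to 35 of the joined CGC and TGC sequences described below. tRNA-Ala 5′ ends of at least 30 nt had 0, 61 and 48 counts in hypoxia, against 4, 45 and 33 counts in normoxia, summed over 22 sequences. Those counts are 0, 23.8 and 28.0 CPM in hypoxia and 12.1, 20.3 and 20.2 CPM in normoxia (exact permutation p = 1.0). The 0 of hypoxia replicate 1 allows up to 5.88 CPM, since 3 counts is the limit that a count of 0 leaves. The most abundant of them, the 30 nt fragment of start type 3 GGGGGattagctcaaatggtagagcgctcg, averaged 3.17 CPM over the 6 libraries.

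**Figure D2:**
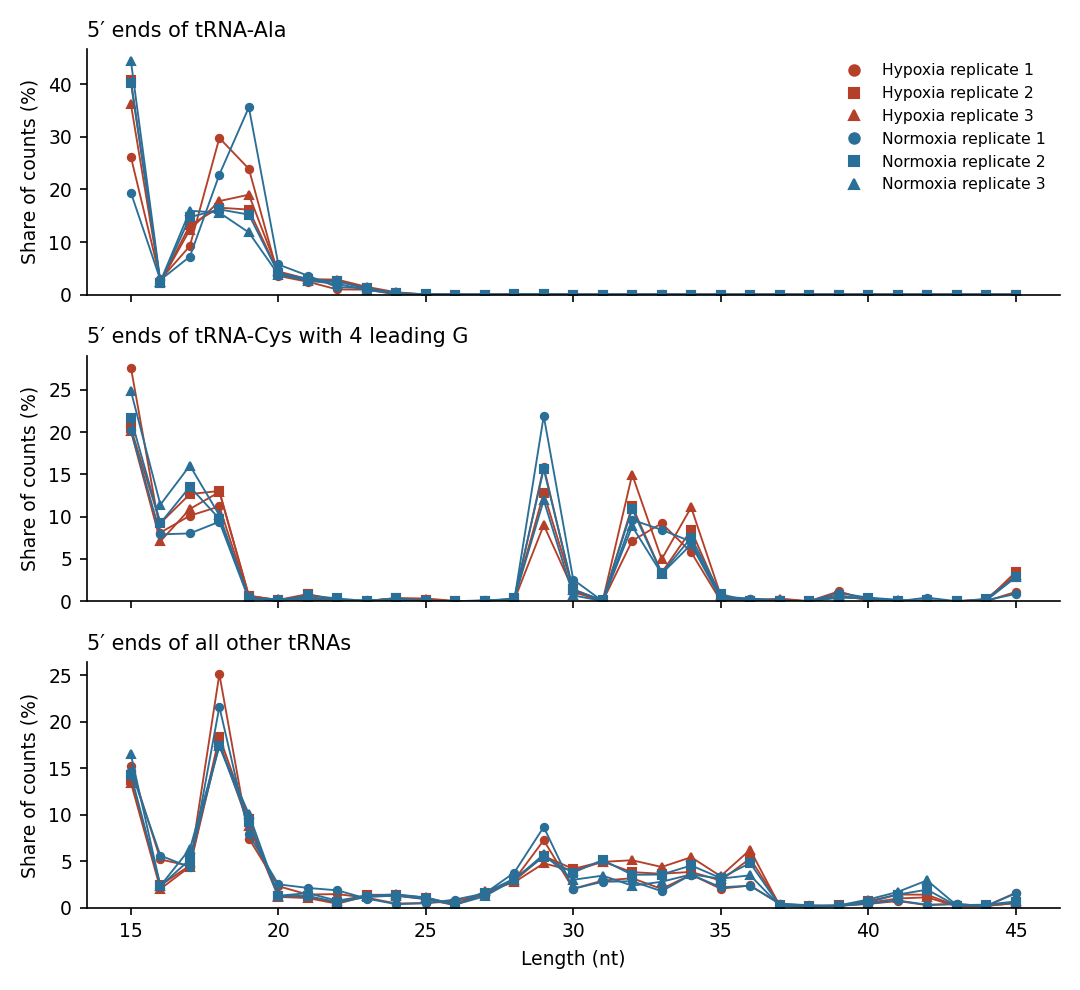
Share of 5′ end counts (%) at each length from 15 to 45 nt for tRNA-Ala, for tRNA-Cys 5′ ends with 4 leading G, and for all tRNAs other than Ala, 1 line per library with hypoxia in red and normoxia in blue. tRNA-Ala 5′ ends stop near 24 nt, whereas the other panels show further peaks between 29 and 36 nt.

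In length, tRNA-Ala 5′ ends differed from the 5′ ends of other tRNAs in these libraries. Fragments of at least 30 nt were 0.0144% ± 0.0139 of tRNA-Ala 5′ end counts and 30.1% ± 6.40 of those of all other tRNAs (SD, n = 6 libraries), lower for tRNA-Ala in 6 of 6 libraries. tRNA-Cys shares the oligoguanine start and is the closest comparison. Its 84 5′ end sequences with 4 leading G, all of them from tRNA-Cys with anticodon GCA, had 29.4% ± 4.79 of counts at 30 nt or more and 55.7% ± 5.77 at 15 to 24 nt, against 0.0141% ± 0.0140 and 99.96% ± 0.0220 for tRNA-Ala 5′ ends with that start (SD, n = 6 libraries). These length differences too are a description without a test, for the same reason.

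Start type 1 made up 85.5%, 93.0% and 93.3% of tRNA-Ala 5′ end counts in hypoxia, against 89.4%, 93.9% and 94.4% in normoxia. It comprised 60 sequences, annotated to all 3 isoacceptors, to mature-tRNA-Ala-CGC or to mature-tRNA-Ala-TGC. Start type 2, annotated to mature-tRNA-Ala-AGC or to it and mature-tRNA-Ala-TGC, had 548, 10452 and 8641 CPM in hypoxia, against 405, 9545 and 11666 CPM in normoxia. Both types were low in the libraries numbered 1. Start type 2 was mostly 15 nt long, with 69.5% ± 3.95 of its counts at 15 nt in hypoxia and 67.8% ± 7.92 in normoxia (n = 3 each).

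Start types 3 and 4, both annotated to mature-tRNA-Ala-AGC alone, did not share that pattern. Start type 3 had 1990, 1876 and 1919 CPM in hypoxia, against 1693, 1683 and 1415 CPM in normoxia, so all 3 hypoxia libraries lay above all 3 normoxia libraries. Its means were 1928 ± 57.8 CPM in hypoxia and 1597 ± 158 CPM in normoxia (exact permutation p = 0.1, the smallest possible, or 0.911 adjusted over the 123 sums and shares compared in this way). Of those 123, 6 had groups that did not overlap. Start type 4 had 1103, 1111 and 1043 CPM in hypoxia, against 1061, 965 and 1029 CPM in normoxia (p = 0.2 by the exact permutation test). Start type 3 peaked at 19 nt in all 6 libraries, and start type 4 at 19 nt in hypoxia and at 18 or 19 nt in normoxia. The 19 nt share was 55.2% ± 11.5 in hypoxia and 54.0% ± 14.8 in normoxia for start type 3, and 48.4% ± 10.9 in hypoxia and 43.7% ± 15.7 in normoxia for start type 4. The 19 nt fragment GGGGGattagctcaaatgg had 1359, 880 and 967 CPM in hypoxia, against 1203, 746 and 660 CPM in normoxia. It was higher in hypoxia in each of the 3 pairs, though the groups overlapped, and edgeR's log2 change was 0.32 (SE 0.45, unadjusted p = 0.5).

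Within start type 1 the sequence varied at the turn into the D loop, the arm named for dihydrouridine. Counted from the 5′ end, the change T16A was found in 10 sequences, annotated to mature-tRNA-Ala-CGC alone, with 23.5, 106 and 72.3 CPM in hypoxia, against 30.2, 100.99 and 105 CPM in normoxia. T16C was found in 9 sequences annotated to mature-tRNA-Ala-TGC alone, with 5.88, 90.1 and 47.8 CPM in hypoxia, against 3.02, 89.3 and 109 CPM in normoxia. G15A was found in another 9 sequences, annotated to mature-tRNA-Ala-TGC, with 1.96, 29.3 and 26.3 CPM in hypoxia, against 9.07, 22.5 and 49.1 CPM in normoxia. By the annotation, each of these variants belongs to a single isoacceptor. All of them were rare within start type 1, which had 21500, 181942 and 165530 CPM in hypoxia, against 26652, 192043 and 242468 CPM in normoxia. Whether these reads come from the isoacceptors they are annotated to was not tested.

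Start type 5 was the only one without a leading run of G, and its 2 most abundant fragments were 28 and 29 nt long. It comprised 14 sequences annotated to mature-tRNA-Ala-CGC, and its 29 nt fragment tccctggtagtctagtggttaggattcgg had 1.96, 135 and 148 CPM in hypoxia, against 0, 166 and 187 CPM in normoxia. For 11 of the 14 the table also holds a tRNA-Glu fragment of the same length that differs by 1 base, G9A counted from the 5′ end with the tRNA-Glu base first. The tRNA-Glu partner of the 29 nt fragment had 17300, 10722 and 9850 CPM in hypoxia, against 19904, 11268 and 12273 CPM in normoxia. The fragment listed as tRNA-Ala was thus 0.0113%, 1.26% and 1.499% of its tRNA-Glu partner in hypoxia, against 0, 1.48% and 1.52% in normoxia. Whether these reads come from tRNA-Ala-CGC or from tRNA-Glu was not tested.

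On the 3′ side, CCA ends came mainly from sequences shared by mature-tRNA-Ala-CGC and mature-tRNA-Ala-TGC. Those had 2266, 4814 and 3785 CPM in hypoxia, against 2718, 4609 and 5548 CPM in normoxia. CCA ends of mature-tRNA-Ala-AGC alone had 125, 514 and 501 CPM in hypoxia, against 136, 567 and 594 CPM in normoxia, so both had their lowest values in the libraries numbered 1. The most abundant CCA end, the 18 nt fragment tccccggcatctccaCCA, had 331, 1197 and 988 CPM in hypoxia, against 426, 1101 and 1121 CPM in normoxia. Its groups overlapped, with a log2 change of -0.09 (SE 0.80, edgeR). The 16 nt fragment cccggcatctccaCCA followed, with 337, 876 and 627 CPM in hypoxia, against 460, 895 and 968 CPM in normoxia. The 17 nt fragment ccccggcatctccaCCA had 243, 793 and 644 CPM in hypoxia, against 302, 702 and 663 CPM in normoxia.

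Unlike the 5′ ends, CCA ends included long fragments. The share at 30 nt or more was 14.6%, 6.09% and 5.13% of tRNA-Ala CCA end counts in hypoxia, against 12.0%, 8.13% and 11.3% in normoxia. In CCA ends of all other tRNAs it was 0.266% to 4.97%, and tRNA-Ala was higher in 6 of 6 libraries, by 7.73 ± 2.26 percentage points (SD of the difference, n = 6 libraries). This difference too is a description without a test, since long CCA ends and the comparison with other tRNAs were chosen after values were seen. The summed CPM of these long CCA ends was 360, 348 and 233 in hypoxia, against 357, 443 and 734 in normoxia, with means of 314 ± 70.1 and 511 ± 198 (SD, n = 3 each; exact permutation p = 0.2). Replicates 1 were nearly equal, replicates 2 had a hypoxia to normoxia ratio of 0.786, and replicates 3 had one of 0.318.

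Among single long CCA ends, the 37 nt fragment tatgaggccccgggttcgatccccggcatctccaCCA had 5.88, 12.1 and 9.92 CPM in hypoxia, against 15.1, 42.8 and 34.4 CPM in normoxia. All hypoxia libraries lay below all normoxia libraries, by a log2 change of -1.76 (SE 0.81; edgeR unadjusted p = 0.0612, adjusted 1.0). With the replicate number as a block the log2 change was -1.73 (SE 0.62, unadjusted p = 0.01, edgeR adjusted p = 0.502). The counts behind it were 3, 31 and 17 in hypoxia, against 5, 95 and 56 in normoxia. The 30 nt fragment ccccgggttcgatccccggcatctccaCCA had 70.5, 74.9 and 66.5 CPM in hypoxia, against 48.4, 93.3 and 218 CPM in normoxia, and its high value was normoxia replicate 3. All 10 CCA ends of at least 30 nt that were tested had a log2 change below 0, from -1.76 to -0.37 with a median of -0.91, and none passed the adjusted threshold. For the 29 tested CCA ends under 30 nt the median was -0.33, and for all 6452 tested tsRNAs it was 0.02. The long fragments overlap in sequence and were singled out after their values were seen.

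Fragments could be placed along the molecule by joining overlapping pieces. For the CGC isoacceptor a 45 nt 5′ end and a 42 nt CCA end overlap by 12 nt, and for TGC both pieces are 45 nt and overlap by 15 nt. Both joined sequences are 75 nt long with the tail, have the anticodon at positions 33 to 35 and differ by C33T alone, going from CGC to TGC. Of all tRNA-Ala counts 92.7% lay in 251 sequences that match either one, and 79.96% to 93.7% in single libraries. Coverage at position 15 was 21533, 182742 and 166444 CPM in hypoxia, against 26670, 193045 and 243782 CPM in normoxia. At position 30 it was 1.96, 15.6 and 27.4 CPM in hypoxia, against 9.07, 8.12 and 7.98 CPM in normoxia. The joined CGC and TGC sequences were thus covered from their ends, with almost no reads over the anticodon. Sequences common to all 3 isoacceptors had 21535, 182759 and 166435 CPM in hypoxia, against 26697, 193043 and 243789 CPM in normoxia. Most coverage at position 15 is therefore shared with mature-tRNA-Ala-AGC, whereas CCA ends on the joined sequences list only CGC and TGC. No AGC sequence was joined, so AGC fragments that span their own anticodon are not in this coverage. Internal fragments that match neither joined sequence held 71.6%, 39.4% and 42.9% of internal counts in hypoxia, against 76.3%, 38.1% and 34.0% in normoxia.

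**Figure D3:**
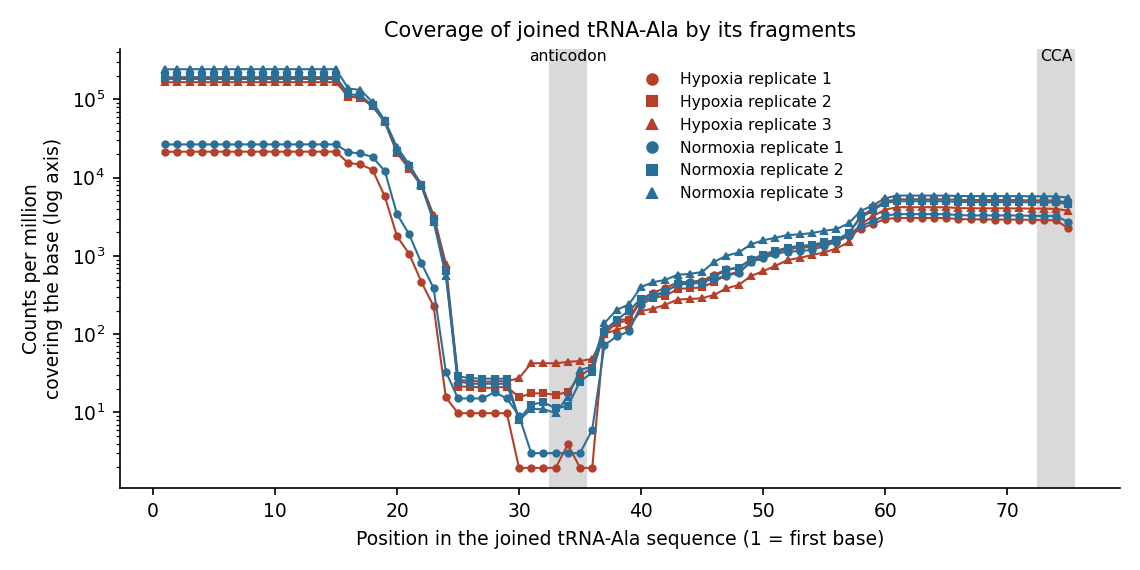
CPM covering each position (log axis) of the joined tRNA-Ala sequence, counted from its first base, 1 line per library with hypoxia in red and normoxia in blue and grey bands over the anticodon and the CCA tail. Coverage drops after position 15, is lowest around the anticodon, and climbs again towards the 3′ end in all 6 libraries. Most reads at the 5′ end also list mature-tRNA-Ala-AGC, for which no sequence was joined.

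Among fragments on the joined sequences that end at its last 4 positions, those with the full CCA tail were 78.3%, 93.9% and 93.7% in hypoxia, against 83.4%, 95.0% and 95.9% in normoxia. Fragments that end in CC, 1 base short, were 20.2%, 5.43% and 5.24% in hypoxia, against 15.9%, 4.44% and 3.99% in normoxia. Each pair had the higher CC share in hypoxia, but the groups overlapped (exact permutation p = 0.5). Ends with only the first C of the tail were 0.948%, 0.532% and 0.852% in hypoxia, against 0.464%, 0.474% and 0.127% in normoxia, without overlap (exact permutation p = 0.1, adjusted 0.911). In CPM those fragments were few, at 27.4, 27.3 and 34.4 in hypoxia and 15.1, 23.0 and 7.36 in normoxia. The full CCA share was lower in hypoxia in all 3 pairs, with means of 88.6% ± 8.93 and 91.4% ± 6.97.

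Internal fragments included sequences that start 1 or 2 bases after the first base of the joined sequences. Whether these are trimmed 5′ ends was not tested. Fragments starting at position 2 had 47.0, 897 and 933 CPM in hypoxia, against 51.4, 1038 and 1317 CPM in normoxia, and those starting at position 3 had 1.96, 96.7 and 92.8 CPM in hypoxia, against 3.02, 126 and 160 CPM in normoxia. Together they were 1.54%, 38.0% and 38.1% of internal counts in hypoxia, against 1.57%, 43.0% and 49.0% in normoxia. They were low in the libraries numbered 1, as the summed 5′ ends were. Of the fragments starting at positions 1 to 3, 0.218% to 0.561% started at position 2 in hypoxia and 0.193% to 0.540% in normoxia. The most abundant of these, the 17 nt fragment gggatgtagctcagtgg, had 21.5, 248 and 242 CPM in hypoxia, against 24.2, 276 and 387 CPM in normoxia. The 16 and 18 nt fragments from the same start followed, with 11.8 to 250 CPM in hypoxia and 6.05 to 312 CPM in normoxia. Internal fragments of mature-tRNA-Ala-AGC alone, 356 sequences, were highest in the libraries numbered 1, at 2041, 781 and 875 CPM in hypoxia, against 2346, 709 and 771 CPM in normoxia. One of them, tgcgagaggtagcgggatcg, had 157, 10.1 and 19.3 CPM in hypoxia, against 193, 11.3 and 0.614 CPM in normoxia.

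The anticodons differed more in number of sequences than in shared counts. Sequences listing mature-tRNA-Ala-AGC numbered 520 and held 89.1%, 97.05% and 97.4% of tRNA-Ala counts in hypoxia, against 89.6%, 97.3% and 97.5% in normoxia. Sequences listing mature-tRNA-Ala-CGC numbered 385 and held 80.4%, 92.5% and 92.7% in hypoxia, against 83.6%, 93.4% and 94.0% in normoxia. Sequences listing mature-tRNA-Ala-TGC numbered 353 and held 82.5%, 97.6% and 97.4% in hypoxia, against 85.1%, 97.9% and 98.3% in normoxia. These shares overlap because the 63 sequences common to all 3 isoacceptors held 69.8% to 90.1% of counts in hypoxia and 73.6% to 91.5% in normoxia. Counted by sequences of 1 isoacceptor only, mature-tRNA-Ala-AGC had 416 sequences with 5277, 4284 and 4338 CPM in hypoxia, against 5251, 3927 and 3812 CPM in normoxia. mature-tRNA-Ala-CGC had 136 such sequences with 86.2, 470 and 451 CPM in hypoxia, against 115, 564 and 553 CPM in normoxia. That sum includes start type 5, whose origin from tRNA-Ala-CGC or tRNA-Glu was not tested. Start type 5 had 1.96, 228 and 217 CPM in hypoxia, against 3.02, 270 and 291 CPM in normoxia. mature-tRNA-Ala-TGC had 73 such sequences with 149, 190 and 182 CPM in hypoxia, against 169, 183 and 241 CPM in normoxia. The groups overlapped for all 3.

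No tRNA-Ala fragment passed the test between hypoxia and normoxia. Of the 910 sequences, 178 had enough counts to be tested by edgeR's quasi-likelihood test across the whole table, and the other 732 held 0.37% of tRNA-Ala counts, 165 of them with 1 count in all. None of the 178 had a Benjamini-Hochberg adjusted p under 0.05 in either direction, where 0% of the 6452 tested tsRNAs did. None had an unadjusted p under 0.05, against 45 tsRNAs or 0.697% of all. The median log2 change was -0.20 over the tested tRNA-Ala fragments, with 71 above 0 and 107 below, against 0.02 over all tested tsRNAs, with 3307 above and 3145 below. By class the medians were -0.10 for 52 5′ ends, -0.38 for 39 CCA ends and -0.14 for 87 internal fragments, and no 3′ end without CCA was tested.

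With the replicate number as a block the result for tRNA-Ala was the same. None of the 178 passed the adjusted threshold, where 0.155% of all tested tsRNAs did, 10 in number. At an unadjusted p under 0.05, 5 were lower (2.81%, against 2.98% of all) and 0 were higher (0%, against 3.41% of all). The 5 lower ones were the 37 nt CCA end, the 5′ ends GGGGatgtagctcagcg of mature-tRNA-Ala-TGC and GGGGatgtagctcagagg of mature-tRNA-Ala-CGC, and the internal fragments tagctcagcggtagagc and gatgtagctcagtggt. The first of the internal ones had 15.7, 1.95 and 2.92 CPM in hypoxia, against 30.2, 11.7 and 16.6 CPM in normoxia. Its hypoxia replicate 1 exceeded normoxia replicate 2, and the log2 change without the block was -1.73 (SE 0.88, edgeR unadjusted p = 0.0861). The internal fragment gatgtagctcagtggt, which starts at position 4 of the tRNA, had 0, 6.63 and 5.83 CPM in hypoxia, against 3.02, 12.2 and 36.8 CPM in normoxia. Its 0 in hypoxia replicate 1 allows up to 5.88 CPM, above the value of normoxia replicate 1.

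Without a model, 5 of the 178 had hypoxia libraries all below normoxia libraries (2.81%, against 2.51% of all tested tsRNAs) and 0 had them all above (0%, against 2.32%). Lower in all 3 pairs were 33 (18.5%, against 13.4%) and higher in all 3 pairs were 19 (10.7%, against 15%). Of the 33, 11 were CCA ends, 15 internal fragments and 7 5′ ends, and of the 19, 10 were 5′ ends and 9 internal fragments. The 5 without overlap were the CCA ends of 25, 33 and 37 nt that end in the CGC and TGC sequence, the 15 nt 5′ end of start type 4 and the internal fragment gggattagctcaaatg of mature-tRNA-Ala-AGC, named after their values were seen. Of the 11 tested fragments of start type 3, 5 were higher in all 3 pairs and 0 were lower. For start type 1 it was 0 higher and 6 lower of 18, for start type 2 it was 2 and 0 of 10, and for start type 4 it was 3 and 1 of 10. Fragments of a start type overlap in sequence and are not independent of each other. The 22 nt fragment of start type 3 GGGGGattagctcaaatggtag, higher in all 3 pairs, had 11.8, 27.7 and 29.2 CPM in hypoxia, against 3.02, 15.3 and 7.36 CPM in normoxia. Its log2 change of 1.30 (SE 0.89) had an unadjusted edgeR p of 0.185. The 15 nt fragment of that type, GGGGGattagctcaa, had 52.9, 12.5 and 25.1 CPM in hypoxia, against 24.2, 14.9 and 12.9 CPM in normoxia. Its groups overlapped, as did those of the internal fragment ggggattagctcaaatggt, with 5.88, 10.5 and 25.1 CPM in hypoxia, against 3.02, 4.06 and 14.1 CPM in normoxia.

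**Figure D4:**
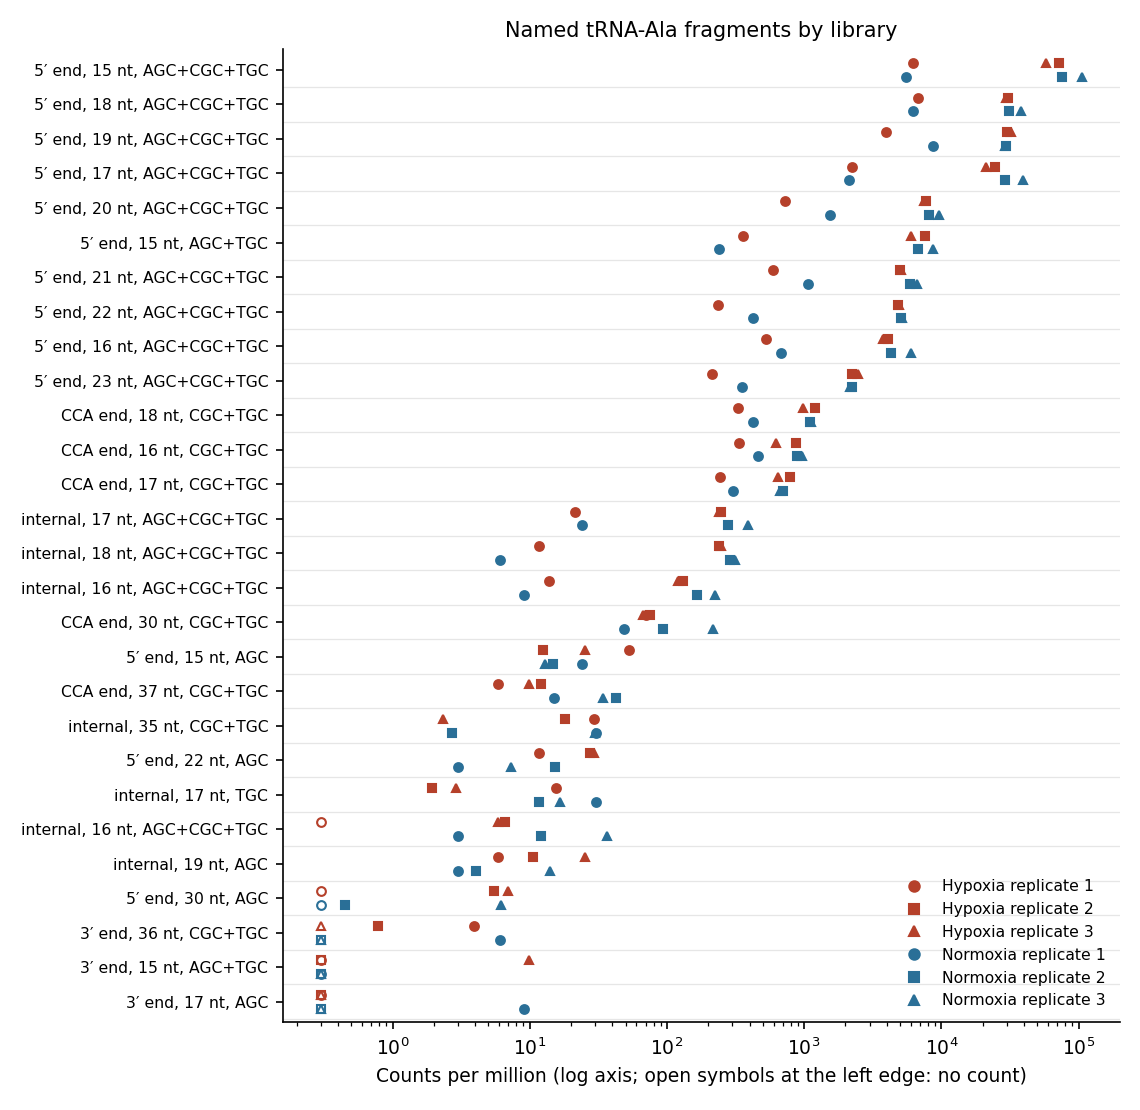
CPM (log axis) of the 28 named tRNA-Ala fragments, ordered by mean CPM, 1 symbol per library, hypoxia above normoxia in each line and circles for replicate 1. In the 10 most abundant fragments, all 5′ ends, the circles of both groups lie to the left of the other symbols, and hypoxia and normoxia symbols lie side by side.

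Summed by class, tRNA-Ala 5′ ends had a log2 change of -0.25 (SE 1.28, edgeR adjusted p = 0.984), CCA ends -0.17 (SE 0.77), internal fragments -0.05 (SE 0.40) and 3′ ends without CCA 1.18 (SE 1.03), and 0% of the 139 sums by amino acid and class passed the adjusted threshold. The sign for internal fragments turned to 0.0699 with DESeq2 size factors. With the replicate block the values were -0.21 (SE 0.16) for 5′ ends, -0.17 (SE 0.14) for CCA ends, -0.04 (SE 0.11) for internal fragments and 1.48 (SE 0.96) for 3′ ends without CCA. Without both libraries numbered 1 they were -0.27 (SE 0.29) for 5′ ends, -0.18 (SE 0.16) for CCA ends and -0.07 (SE 0.15) for internal fragments. That fit gave 2.19 (SE 0.92, unadjusted p = 0.0175, edgeR adjusted p = 0.0762) for 3′ ends without CCA, a class of at most 33 counts in a library, and it called 6 sums higher and 17 lower of 139 (16.5%), none of them of tRNA-Ala. Of single tsRNAs it called 1 of 6498 (0.0154%), which was not from tRNA-Ala.

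The tRNA-Cys 5′ ends with 4 leading G served as the list of other oligoguanine fragments. They had 3042, 5264 and 4191 CPM in hypoxia, against 2830, 4187 and 4097 CPM in normoxia (means 4166 ± 1111 and 3705 ± 759, SD, n = 3 each; exact permutation p = 0.4). Of 36 tested, 25 had a log2 change above 0 and 11 below, with a median of 0.32, and none passed the adjusted threshold. The tRNA-Ala 5′ ends with the same start had 25141, 195431 and 177175 CPM in hypoxia, against 29811, 204290 and 256655 CPM in normoxia. Whether the changes of the tRNA-Ala and tRNA-Cys fragments differ from each other was not tested.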

How the data were processed

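The deposited values are raw counts of reads per distinct sequence of 15 to 45 nt, not normalized by the authors. Libraries followed the Pandora-seq strategy per the labels, and the mouse build was mm10 per the submitters' processing notes. Which aligner, tRNA reference and filters were used is not given in the sources used here. Fragment classes were read from the table's suffixes: 5′ end, CCA end, 3′ end without CCA, and internal for all others, which includes ends in C or CC.

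The counts were tested over the whole table with the quasi-likelihood test of edgeR 4.0.16 (R 4.3.3), with TMM scaling, filterByExpr, group as the only term and a Benjamini-Hochberg adjusted p under 0.05, and again as sums by amino acid and class. The fits were also run on simulated counts with a smaller spread than the real libraries, where edgeR's common dispersion, its measure of spread, was 0.706. That run therefore does not show how large a change the tests could detect here. The SE of a log2 change is its size divided by the square root of F. CPM is counts per 1000000 of a library's plain total. Sums and shares were compared by exact permutation tests (SciPy 1.17.1, Python 3.11.15), with adjusted values over all 123 of them. Reads carried no molecular identifiers, so limits from counts cover counting error only. The alternatives were library size scaling, DESeq2 size factors, DESeq2 1.42.0, limma 3.58.1 (voom), no filter, at least 10 counts in 3 libraries, leaving out each library or both numbered 1, and the replicate block.

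The design text states no pairing. Same-numbered libraries deviated together from their group means (correlations 0.78, 0.463 and 0.376 for replicates 1, 2 and 3), and for that reason alone the numbers were used as pairs. The correlation was -0.01 within replicates 2 and 3, so the pairing rests on replicates 1 and is not shown for replicates 2 and 3.

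Named fragments are the 10 most abundant, the 3 most abundant per class, the most abundant of at least 30 nt per class, and, of those with a mean of at least 10 CPM, the 3 higher and 3 lower with the smallest unadjusted p. Start types, joined sequences, long CCA ends, tails and comparisons with other tRNAs were added after values were seen. The members and lists were chosen with earlier results of these data known. No tRNA gene sequence was used here, so positions come from joined fragments. Gene numbers and lengths are from RefSeq.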

Additional observations from a re-analysis of the deposited data

How the results depend on the processing

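No tRNA-Ala fragment and no tRNA-Ala sum was called under any of the 14 alternatives run for each, the replicate block included (0 calls), and the block changed no call of the other results. Over the whole table, leaving out both libraries numbered 1 called 6 of 139 sums higher and 17 lower and 1 of 6498 tsRNAs, and the block called 10 of 6452 tsRNAs. The other alternatives called none over the whole table. With the block or pairing the total differed by -31993 CPM and the 5′ ends by -31042 CPM. The exact sign-flip permutation test over pairs gave p = 0.25 for each, the smallest that 3 pairs can give. Depth and the spread between the libraries numbered 1 and the rest both limit what a missed threshold can show.

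Directions depended on single libraries, and the cause was not tested. Leaving out 1 library, or both numbered 1, moved the difference in total CPM between -99766 and 22506, in 5′ end CPM between -98022 and 22752, in the 5′ end share between -5.12 and 4.40 percentage points, in the share of 15 to 24 nt between -0.0418 and 0.0419 points (-0.0105 without both libraries numbered 1), and in the full CCA share between -6.79 and 2.38 points. Without both libraries numbered 1 the total differed by -45267 CPM, the 5′ ends by -44228 CPM and the 5′ end share by -0.306 percentage points. Long CCA ends stayed lower under every leave-out, between -298 and -85.9 CPM. The log2 change of the summed 5′ ends ran from -0.79 to 0.29, of CCA ends from -0.60 to 0.26 of internal fragments from -0.28 to 0.17 and of 3′ ends without CCA from 0.66 to 2.28. Internal fragments also changed sign with DESeq2 size factors (0.0699) and DESeq2 (0.0697).

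Of the 24 named fragments that were tested, 0 changed their call, and 289 of 336 alternative values kept the sign. The ranges over left-out libraries that crossed 0 were, for 5′ ends of start type 1, -1.06 to 0.14 (15 nt), -0.97 to 0.18 (16 nt), -1.16 to 0.0248 (17 nt), -0.74 to 0.27 (18 nt), -0.49 to 0.51 (19 nt), -0.79 to 0.27 (20 nt), -0.87 to 0.18 (21 nt), -0.67 to 0.45 (22 nt) and -0.48 to 0.59 (23 nt), and for the 15 nt fragment of start type 2 -0.77 to 0.40. For CCA ends they were -0.81 to 0.0412 (16 nt), -0.40 to 0.44 (17 nt) and -0.52 to 0.37 (18 nt), and for internal fragments -1.02 to 0.17 (gggatgtagctcagtgg), -0.89 to 0.25 (gggatgtagctcagtggt), -0.98 to 0.51 (the 35 nt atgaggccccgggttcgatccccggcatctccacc) and -0.0153 to 2.13 (ggggattagctcaaatggt). Without both libraries numbered 1 the 19 nt start type 1 fragment had 0.0386 and the 17 nt CCA end 0.0324. With no filter those fragments had 0.0278 and 0.049, and with library size scaling the 17 nt CCA end had 0.00348. The 15 nt start type 2 fragment had 0.0915 with limma voom and 0.0584 with the replicate block, and the 23 nt start type 1 fragment -0.18 and -0.16.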
